A study of Rattus norvegicus with 4 samples.

Results

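Gene expression in the mammary gland of heterozygous Hirosaki hairless rats (HHR) was compared with that of Sprague-Dawley rats (SDR) on day 1 of lactation. The comparison rests on 2 of the 4 arrays of the series, the arrays labelled heterozygous HHR lactation and SDR lactation, with 1 array in each group. The other arrays hold homozygous HHR on day 1 of lactation and SDR on day 1 of involution, and their values are given beside those of the compared pair. HHR are a hairless mutant strain that arose from Sprague-Dawley rats and carry a deletion within the cluster of type II hair keratin genes. Heterozygous animals carry 1 copy of the mutant allele. All 4 samples are labelled as mammary gland tissue, and age, litter size, the number of animals behind an array and any pooling are not given there or in the other sources used here.

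The mammary gland is a tree of ducts and alveoli in which luminal cells make milk and myoepithelial cells squeeze it out. Around birth the alveolar epithelium still divides while it turns to milk secretion, so that genes of DNA replication and mitosis are expressed beside those of milk proteins and milk fat. E2F factors drive the genes of the G1/S transition through a short GC-rich site, and the mitotic genes of G2 and M phase carry the cell cycle homology region (CHR), to which the DREAM and MuvB complexes bind. Interferons induce their target genes through the interferon-stimulated response element (ISRE), and antigen presentation by RT1, the major histocompatibility complex of the rat, is in part under interferon control.

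The promoters of 6 genes past 2-fold are shown, chosen after their values were seen. Fam111a belongs to none of the gene lists read below, and the others are from the classes above. Each runs from 250 bases before to 50 bases after the annotated start, 5′ to 3′ on the strand of the gene, from RefSeq on build GRCr8, a reference genome and not that of SDR or HHR. Capitals mark the letters TTTGGCGC, TTTCGCGC or TTTCCCGC (E2F) in Mcm5 and Cdk1, TTTGAA (CHR) in Cdk1, Ccnb2 and Fam111a, and GAAA followed after any 2 bases by GAAA (ISRE) in Rsad2 and Tap2, each read on both strands. Mcm5, a subunit of the replicative helicase, lies at chr19:13488563-13488862 on the plus strand, and Cdk1, the kinase that starts mitosis, at chr20:19265043-19265342 on the plus strand. Ccnb2, a mitotic cyclin, lies at chr8:79981609-79981908 on the minus strand, and Fam111a, a protease needed at stalled replication forks, at chr1:219065389-219065688 on the plus strand. Rsad2, the antiviral enzyme viperin, lies at chr6:48788071-48788370 on the minus strand, and Tap2, a subunit of the peptide transporter for MHC class I, at chr20:4652247-4652546 on the minus strand.
Mcm5: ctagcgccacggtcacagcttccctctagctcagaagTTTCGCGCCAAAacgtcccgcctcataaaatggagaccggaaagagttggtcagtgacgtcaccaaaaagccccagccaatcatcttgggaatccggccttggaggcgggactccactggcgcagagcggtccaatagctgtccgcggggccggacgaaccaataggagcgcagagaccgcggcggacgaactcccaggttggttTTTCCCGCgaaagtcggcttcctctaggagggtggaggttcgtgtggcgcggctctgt
Cdk1: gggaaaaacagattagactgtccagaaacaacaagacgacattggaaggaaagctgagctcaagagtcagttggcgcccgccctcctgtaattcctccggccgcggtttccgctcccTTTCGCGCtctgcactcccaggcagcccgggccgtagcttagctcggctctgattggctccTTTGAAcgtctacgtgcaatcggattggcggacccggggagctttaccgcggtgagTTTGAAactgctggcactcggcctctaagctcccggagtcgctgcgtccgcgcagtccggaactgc
Ccnb2: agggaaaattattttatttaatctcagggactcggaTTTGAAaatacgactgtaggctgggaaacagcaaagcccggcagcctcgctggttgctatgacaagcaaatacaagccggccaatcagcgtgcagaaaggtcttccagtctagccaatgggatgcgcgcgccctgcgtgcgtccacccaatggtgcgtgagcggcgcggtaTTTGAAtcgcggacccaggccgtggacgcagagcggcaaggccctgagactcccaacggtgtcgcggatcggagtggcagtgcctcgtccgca
Fam111a: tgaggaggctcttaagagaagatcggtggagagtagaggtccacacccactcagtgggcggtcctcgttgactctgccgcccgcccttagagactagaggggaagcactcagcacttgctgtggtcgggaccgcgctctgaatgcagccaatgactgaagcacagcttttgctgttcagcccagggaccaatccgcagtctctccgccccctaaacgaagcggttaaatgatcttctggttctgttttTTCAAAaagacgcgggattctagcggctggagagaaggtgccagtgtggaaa
Rsad2: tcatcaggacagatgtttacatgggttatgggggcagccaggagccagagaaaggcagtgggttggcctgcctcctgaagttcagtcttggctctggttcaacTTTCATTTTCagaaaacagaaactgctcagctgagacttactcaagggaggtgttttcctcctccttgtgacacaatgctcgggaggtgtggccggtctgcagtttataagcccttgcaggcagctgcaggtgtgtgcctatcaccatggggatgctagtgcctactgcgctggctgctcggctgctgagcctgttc
Tap2: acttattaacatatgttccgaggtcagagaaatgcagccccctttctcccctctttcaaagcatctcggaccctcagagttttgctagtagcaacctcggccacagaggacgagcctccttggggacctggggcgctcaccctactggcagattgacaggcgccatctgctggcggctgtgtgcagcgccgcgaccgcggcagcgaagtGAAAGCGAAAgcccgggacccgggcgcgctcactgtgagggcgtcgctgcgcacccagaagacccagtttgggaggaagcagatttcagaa
In Mcm5 the E2F letters began 213, 209 and 8 bases before the start, the first 2 overlapping on opposite strands. In Cdk1 E2F letters began 133 bases, and CHR letters 72 and 16 bases, before the start. Ccnb2 held CHR letters 214 and 43 bases before the start, and Fam111a held them 2 bases before it. The ISRE letters of Rsad2 began 147 bases and those of Tap2 41 bases before the start. A match is a description of the letters and not a mapped binding site.

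Each array held 31099 probe sets. A floor was set at a signal of 91.5, the 40th percentile over all 4 arrays, and 10368 genes in heterozygous HHR and 10373 in SDR lay above it. With 1 array in each group there is no replicate spread and no test, so differences are described by their size and nothing shows how far they would recur in other animals. RNA integrity was read from control probe sets as the 3′ signal over the 5′ signal, and for Gapdh it was 1.93 in heterozygous HHR and 1.17 in SDR, and for actin 7.86 in heterozygous HHR and 4.60 in SDR. Both ratios thus moved with the comparison, and their part in the differences below was not tested. Values given for genes are signals on the linear scale of the arrays, and differences are log2 of heterozygous HHR over SDR, with lower values raised to the floor. Where 1 of the signals lay below the floor, the fold is a lower bound, written as at least.

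Of 10876 genes with a signal above the floor in either array of the pair, 498 were at least 2-fold higher in heterozygous HHR (4.58%) and 451 at least 2-fold lower (4.15%). These shares are the background for each list count below. At 4-fold, 36 genes were higher (0.331%) and 27 lower (0.248%), and the median difference over all genes was 0.01. The genes nearest to the 2-fold limit were Zfp469, just inside with 186 in heterozygous HHR and 92.7 in SDR, and Mical3, just outside with 1644 in heterozygous HHR and 822 in SDR. On the other side Slc25a51l1 stood just inside with 459 in heterozygous HHR and 917 in SDR, and Clec14a just outside with 193 in heterozygous HHR and 385 in SDR. Some genes past 2-fold were read by more than 1 probe set above the floor, and all of these pointed the same way in 81 of 112 higher and 70 of 84 lower genes. Counted by probe set with 1 symbol, 4.62% of 15008 were at least 2-fold higher and 6.11% lower, a balance opposite to that of the gene counts. Among probe sets with no single gene symbol, which enter no count of genes, 7.51% were at least 2-fold higher and 3.58% lower.

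**Figure D1:**
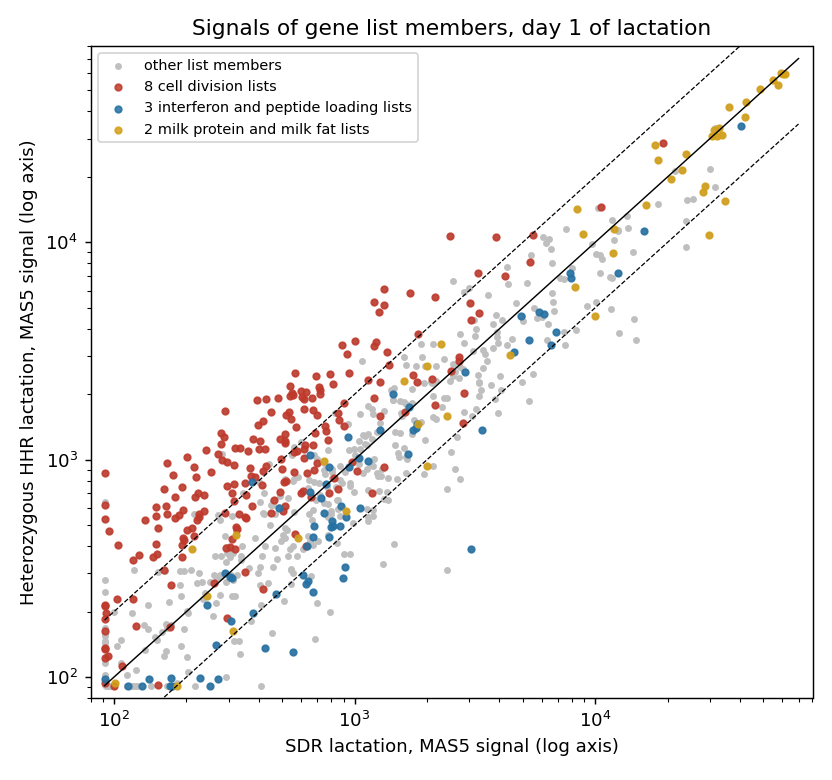
MAS5 signal of each gene list member in heterozygous HHR (vertical) against SDR (horizontal) on day 1 of lactation, both on log axes, 1 point a gene, with values under the floor of 91.5 set to it, a solid line at equality and dashed lines at 2-fold. Members of the 8 cell division lists lie mostly above the upper dashed line, interferon and peptide loading genes mostly below equality, and most milk protein and milk fat genes near equality at the bright end.

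Genes of DNA replication and mitosis had higher signals in heterozygous HHR, and the spindle list had the highest median of the 44 lists read. In 8 lists of cell division genes, 125 of 216 measured genes were at least 2-fold higher and 0 lower on the probe set that stood for each gene. The median difference over the 216 genes was 1.17, against 0.01 over all genes. These 125 genes made up 25.1% of the 498 higher genes. Of the 26 read by more than 1 probe set above the floor 25 had all probe sets pointing the same way, the exception being Tmpo, a nuclear envelope protein. More dividing cells and more RNA of these genes in each dividing cell cannot be told apart in tissue RNA.

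Of 34 genes of origin licensing and the replication fork 22 were higher and 0 lower (median difference 1.12). The replicative helicase is built from the Mcm subunits, and Mcm5 had 1545 in heterozygous HHR and 545 in SDR, 2.83-fold higher. Mcm3, another subunit, had 756 in heterozygous HHR and 294 in SDR, 2.57-fold higher. Cdc45, which completes the active helicase, had 1214 in heterozygous HHR and 403 in SDR, 3.01-fold higher. All 3 were thus past 2-fold. Pole, the catalytic subunit of the leading strand polymerase, had 732 in heterozygous HHR and 162 in SDR, 4.52-fold higher, and Pold1, that of the lagging strand polymerase, had 484 in heterozygous HHR and 153 in SDR, 3.16-fold higher. Chaf1a, a chaperone that places histones on new DNA, had 847 in heterozygous HHR and 176 in SDR, 4.82-fold higher. Rfc3 and Rfc4, subunits of the clamp loader, were 3.63-fold higher and 3.59-fold higher. Pcna, the sliding clamp itself, stayed just short of 2-fold with 10836 in heterozygous HHR and 5515 in SDR (log2 difference 0.97). The helicase subunit Mcm7 also stayed just short, with 2733 in heterozygous HHR and 1385 in SDR. Gins4, a subunit of the helicase complex, had 2846 in heterozygous HHR and 2720.1 in SDR and was nearly level.

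Enzymes that supply nucleotides differed less, with 3 of 14 higher, 0 lower and a median of 0.64. Dut, which keeps uracil out of DNA by removing dUTP, had 5855 in heterozygous HHR and 1700.4 in SDR, 3.44-fold higher. Ctps1, which makes CTP, was 2.55-fold higher, and Rrm1, the large subunit of ribonucleotide reductase, was 2.02-fold higher. Nme1, a nucleoside diphosphate kinase, had 2022 in heterozygous HHR and 2848 in SDR.

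In the list of G1 cyclins, E2f factors and CDK inhibitors 8 of 28 genes were higher and 0 lower (median 0.50). Ccnd1, cyclin D1, which couples growth signals to the cell cycle, had 7259 in heterozygous HHR and 3249.9 in SDR, 2.23-fold higher, and its other probe sets were 1.70-fold and 1.13-fold higher. Ccne2 and Ccne1, the E cyclins that start S phase, were 3.94-fold higher and 2.91-fold higher. E2f2, an activating E2F factor, had 553 in heterozygous HHR and 150.3 in SDR, 3.68-fold higher. The members short of 2-fold included the kinase Cdk4 with 1659 in heterozygous HHR and 1620 in SDR, and the inhibitor Cdkn1b (p27) with 2983 in heterozygous HHR and 2712 in SDR. Cdk4 was close to level and Cdkn1b only slightly higher. Myc, a growth regulator, had 842 in heterozygous HHR and 371 in SDR, 2.27-fold higher, and stood at 2536 in homozygous HHR.

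Mitotic genes showed larger differences than replication genes, with medians of 1.63 for cyclins and kinases and 1.72 for the spindle list. Of 23 mitotic cyclins and kinases 19 were higher and 0 lower. Cdk1 had 4779.6 in heterozygous HHR and 1261 in SDR, 3.79-fold higher. Its partners Ccna2, Ccnb1 and Ccnb2, cyclins of S phase and mitosis, were 4.43-fold higher, 3.26-fold higher and 2.81-fold higher. Foxm1, a transcription factor of mitotic genes, had 617 in heterozygous HHR against a value below the floor in SDR and was at least 6.75-fold higher. Mybl2, the B-Myb subunit that joins the MuvB complex at these promoters, was 2.88-fold higher. Foxm1 and Mybl2 were thus higher in the same array as the cyclins. Aurka, a kinase of the centrosome, had 1514 in heterozygous HHR and 417 in SDR, 3.63-fold higher, and Bub1, a kinase of the spindle checkpoint, had 1653 in heterozygous HHR and 448 in SDR, 3.69-fold higher. Haspin, which phosphorylates histone H3 at centromeres, was 4.02-fold higher. Cks1b, a small CDK-binding subunit, was the member that went the other way, with 1483 in heterozygous HHR and 2821 in SDR (log2 difference -0.93). On its second probe set Cks1b had 462 in heterozygous HHR and 934.5 in SDR, 2.02-fold lower and so past the limit. Wee1, an inhibitory kinase of Cdk1, had 715 in heterozygous HHR and 609 in SDR, and on its other probe set 905 in heterozygous HHR and 364 in SDR, 2.49-fold higher.

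Of 46 spindle, kinetochore and cytokinesis genes 42 were higher and 0 lower. Kif14, a motor protein of cytokinesis, had 469.7 in heterozygous HHR and 95.7 in SDR, 4.91-fold higher. Tacc3, which steadies spindle microtubules, had 1907 in heterozygous HHR and 429 in SDR, 4.44-fold higher, and Nusap1, which bundles them, had 5126 in heterozygous HHR and 1322 in SDR, 3.88-fold higher. These 3 were thus all past 2-fold. At the kinetochore, Ska1 was 4.23-fold higher, Zwilch 4.41-fold higher and Spc25 3.53-fold higher. Sgo1, which guards sister chromatid cohesion at centromeres, had 1107 in heterozygous HHR and 242 in SDR, 4.57-fold higher. Cenpt, which links the centromere to the kinetochore, had 534 in heterozygous HHR against a value below the floor in SDR and was at least 5.84-fold higher. Stmn1, which disassembles microtubules, was short of 2-fold with 6976 in heterozygous HHR and 4206 in SDR. Tubb5, a beta-tubulin, had 10528 in heterozygous HHR and 3879 in SDR, 2.71-fold higher.

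Of 18 genes of the anaphase-promoting complex and mitotic exit 4 were higher and 0 lower (median 0.51). On the probe set that stood for each gene, the 4 were not core subunits of the complex. Cdc20, its activator, had 2097 in heterozygous HHR and 720.3 in SDR, 2.91-fold higher, and Fbxo5, its inhibitor Emi1, was 2.26-fold higher. Espl1, separase, which cuts cohesin, had 1322 in heterozygous HHR and 279 in SDR, 4.73-fold higher. Ube2c, the ubiquitin-conjugating enzyme of the complex, was 4.41-fold higher. The core subunit Anapc4 had 1588 in heterozygous HHR and 1279 in SDR, and Anapc11 had 1789 in heterozygous HHR and 2158 in SDR. Both lay within 2-fold, on either side of equality. Further probe sets of core subunits passed 2-fold both ways, with Anapc1 2.48-fold higher, Cdc16 2.52-fold lower and Cdc23 at least 2.97-fold lower.

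Chromosome structure genes were higher in 11 of 20 cases and lower in 0, with a median of 1.11. Ncapd2 and Smc4, condensin subunits, were 5.10-fold higher and 4.28-fold higher. Uhrf1, which guides DNA methylation onto new strands, had 612 in heterozygous HHR and 164 in SDR, 3.72-fold higher. H2az1, a histone variant, had 28601 in heterozygous HHR and 19099.7 in SDR, short of 2-fold. Of 33 DNA repair and checkpoint genes 16 were higher and 0 lower (median difference 0.96). Clspn, claspin, a mediator of the replication checkpoint, had 407 in heterozygous HHR and 104 in SDR, 3.90-fold higher, and Blm, a helicase of recombination, had 671 in heterozygous HHR and 179 in SDR, 3.75-fold higher. Fancd2, of the Fanconi pathway of crosslink repair, was 3.05-fold higher. Parp1, an abundant sensor of DNA breaks, was nearly level with 2361 in heterozygous HHR and 2091 in SDR.

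**Figure D2:**
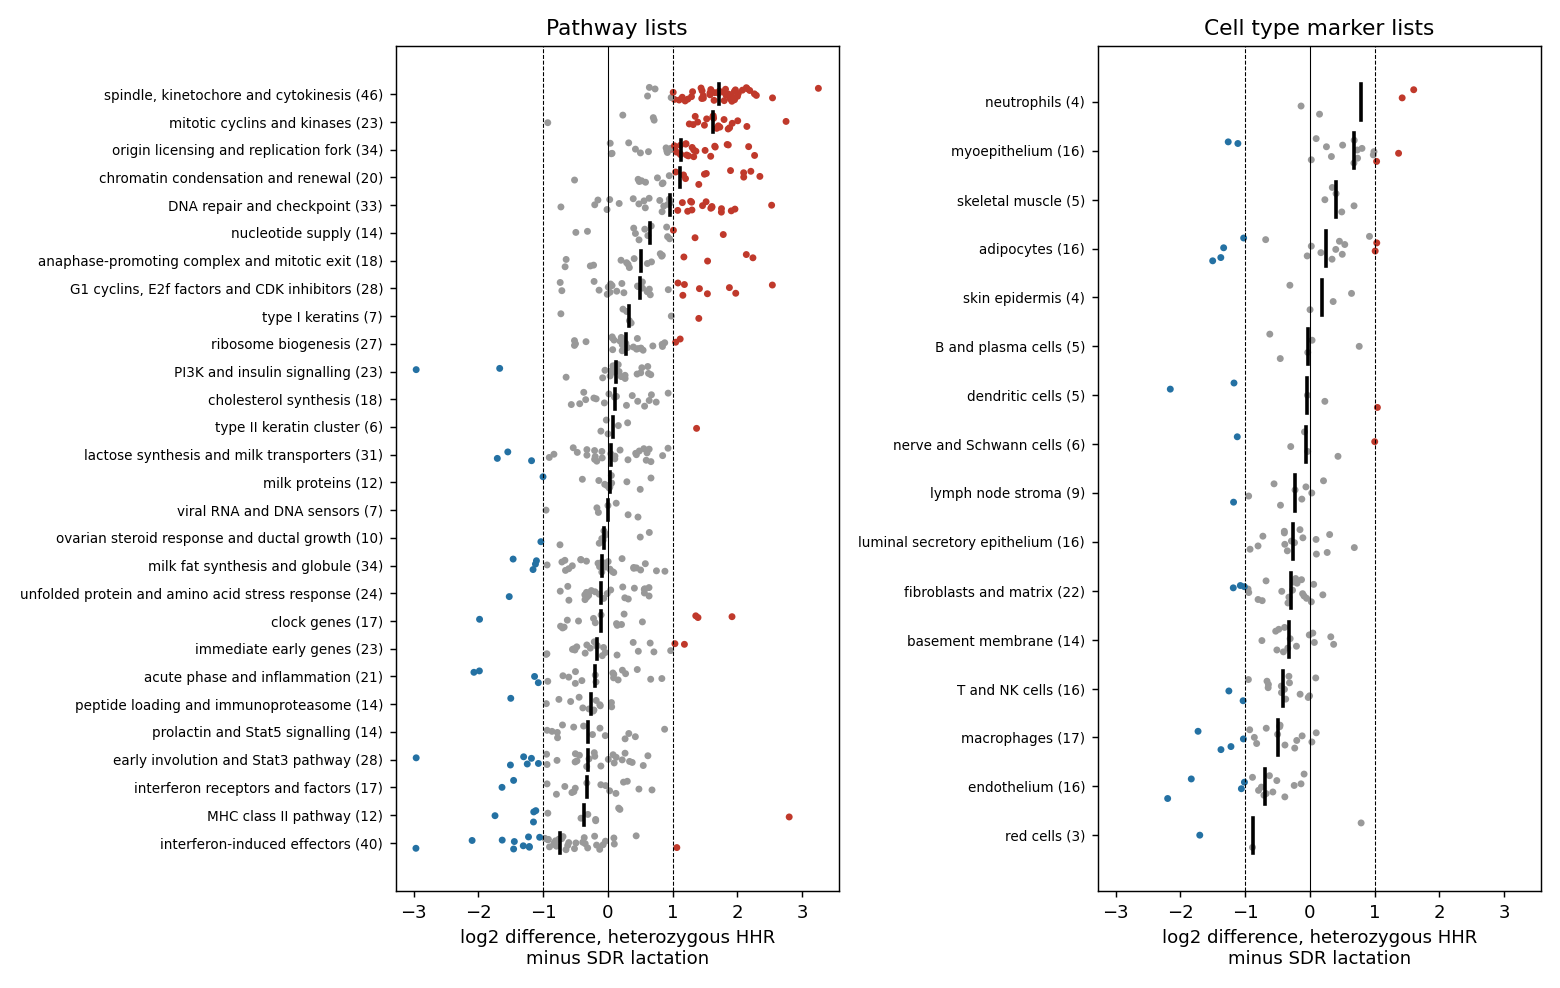
Log2 difference (heterozygous HHR minus SDR, horizontal) of every measured member of 28 pathway lists (left) and 16 cell type marker lists (right), 1 point a gene, with the number of members in brackets and a black bar at each median. Points at least 2-fold higher are red, points at least 2-fold lower are blue, and dashed lines mark 2-fold; the medians of the cell division lists reach 1.72 and that of the interferon-induced effectors is -0.73.

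The same genes were read in the other arrays of the series. Over the 34 replication genes heterozygous HHR had a median signal of 841, homozygous HHR 440.1, SDR involution 369 and SDR lactation 419.6. Over the 69 genes of the mitotic kinase and spindle lists heterozygous HHR had 1184, homozygous HHR 525, SDR involution 116 and SDR lactation 417. By these medians heterozygous HHR was thus the highest array for both groups and SDR involution the lowest, with a much wider gap for the mitotic group. Heterozygous HHR held the highest of the 4 values in 182 of the 216 cell division genes and exceeded homozygous HHR in 201. For Cdk1 heterozygous HHR had 4779.6, homozygous HHR 1687, SDR involution 272 and SDR lactation 1261. Set against the SDR lactation array, which all these differences share, the spindle list had a median of 1.72 for heterozygous HHR, of 0.54 for homozygous HHR and of -1.24 for SDR involution.

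**Figure D3:**
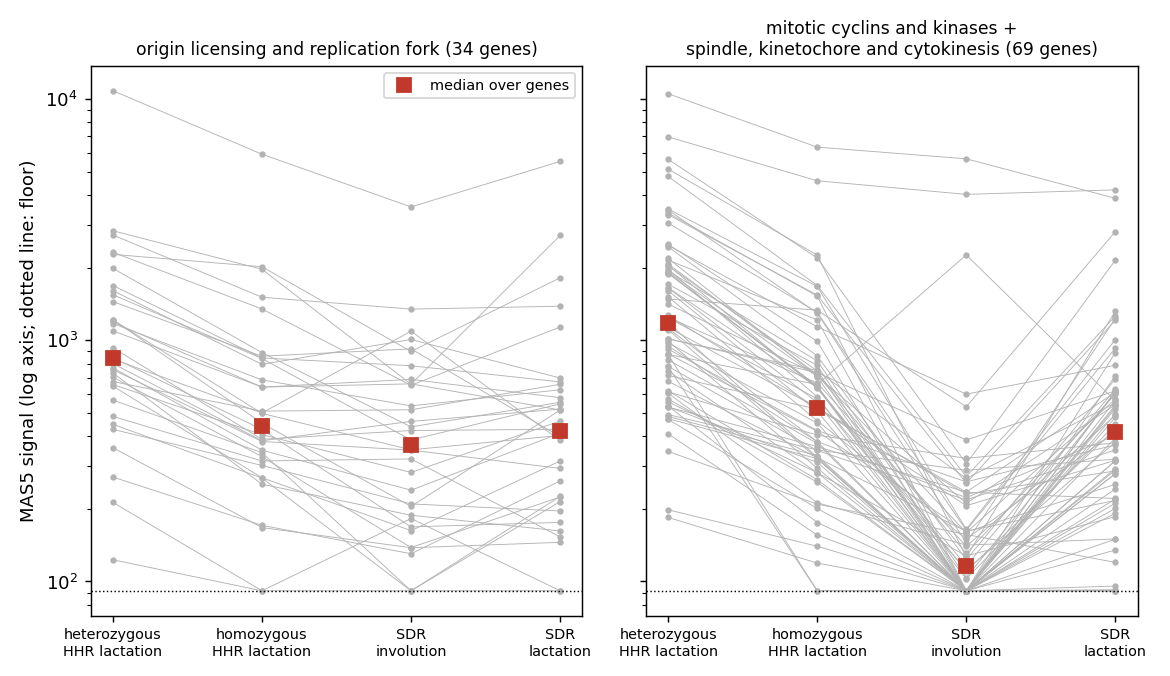
MAS5 signal (log axis) of each replication gene (left, 34 genes) and each mitotic or spindle gene (right, 69 genes) in the 4 arrays, 1 grey line a gene, with red squares at the median and a dotted line at the floor of 91.5. The median square is highest in heterozygous HHR in both panels (841 and 1184), and in SDR involution many mitotic genes lie at the floor (median 116).

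Promoter letters were counted for the 9045 measured genes that matched the RefSeq table by gene identifier. Of these, 4.50% passed 2-fold upward and 3.85% downward. Among 323 genes with E2F letters 10.8% were higher and 1.86% lower, and among 1034 genes with CHR letters 9.86% were higher and 4.06% lower. Genes with the CCAAT box, 3433 in number, were higher in 5.68% and lower in 3.82%. E2F letters stood in 1.82% and CHR letters in 18.1% of all 27457 promoters of the table. Over the 9045 measured genes the shares were 3.57% for E2F and 11.4% for CHR. They were found in 14 of 30 replication promoters for E2F (46.7%) and in 23 of 40 spindle promoters for CHR (57.5%). Mitotic cyclins and kinases held CHR letters in 11 of 17 promoters (64.7%) and E2F letters in 1. The promoters of Mcm5 and Ccnb2 shown above are examples of these classes, and that of Cdk1 holds both kinds of letters. E2F and CHR letters are common in known cell division genes, so these shares describe the same genes again and add no separate evidence.

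Interferon-induced genes had lower signals in heterozygous HHR. Of 40 measured effectors 10 were at least 2-fold lower and 1 higher, and the median difference was -0.73. With the floor added to each signal as a pseudocount 5 were lower. In all, 36 of the 40 lay below equality. Mx1, a GTPase that blocks viral replication, had 137 in heterozygous HHR and 424 in SDR, 3.10-fold lower. Isg15, a ubiquitin-like modifier, had 247 in heterozygous HHR and 673 in SDR, 2.72-fold lower, and Usp18, which removes it and dampens interferon signalling, had 98.4 in heterozygous HHR and 270 in SDR, 2.74-fold lower. Rsad2 had 294 in heterozygous HHR and 609.7 in SDR, 2.08-fold lower. Gbp2, a guanylate-binding protein against intracellular microbes, had 276 in heterozygous HHR and 639 in SDR, 2.32-fold lower. These 5 genes were thus all past 2-fold. Lgals9, galectin 9, had 129.9 in heterozygous HHR and 556 in SDR, 4.28-fold lower. Cxcl10, a T cell chemokine of the same family as Cxcl9, had a value below the floor in heterozygous HHR against 251 in SDR and was at least 2.74-fold lower. Epsti1 was the exception past 2-fold, with 788 in heterozygous HHR and 376 in SDR, 2.09-fold higher. Some effectors were near level, among them Ifit3 with 98.5 in heterozygous HHR and 91.9 in SDR. Ifi44l had 288 in heterozygous HHR and 303 in SDR. The abundant membrane proteins Ifitm3 and Ifi27 stayed short of 2-fold, Ifitm3 with 11327 in heterozygous HHR and 15941 in SDR and Ifi27 with 7211 in heterozygous HHR and 12496 in SDR.

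Among 17 interferon receptors and their factors 2 were lower, Irf7 and Usp18, and 0 higher (median -0.32). The kinase Jak1 had 4578 in heterozygous HHR and 4934 in SDR, and the receptor chain Ifngr1 had 3124 in heterozygous HHR and 4589 in SDR. Irf3, which starts the first wave of interferon, had 2010 in heterozygous HHR and 1441 in SDR. Of 7 sensors of viral nucleic acid none passed 2-fold, and Sting1, the adaptor for cytosolic DNA, was level with 202 in heterozygous HHR and 201 in SDR. Beside the SDR lactation array that the differences share, the effector median was -0.73 for heterozygous HHR, -0.27 for homozygous HHR and 0.64 for SDR involution. Markers of macrophages and of T and NK cells were also lower in sum, with values under the floor raised to it. The summed signal of 17 macrophage markers was 15128 in heterozygous HHR and 26536 in SDR. That of 16 T and NK cell markers was 3847 in heterozygous HHR and 5663 in SDR. Of these 16 markers 6 lay below the floor in heterozygous HHR and 0 in SDR. Unlike these lists, 2 of 4 neutrophil markers were higher and 0 lower (median 0.79). B and plasma cell markers were lower in sum, at 16815 in heterozygous HHR and 25214 in SDR, with a median of -0.03. Dendritic cell markers summed to 1244.5 in heterozygous HHR and 1408 in SDR, with a median of -0.04. The part of immune cells in the lower interferon and class II signals was not tested. ISRE letters stood in 23 of 33 effector promoters (69.7%), against 3.77% of all promoters in the table and 3.01% of those of measured genes. Of the 272 measured genes with these letters 7.35% were at least 2-fold lower and 5.51% higher.

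**Figure D4:**
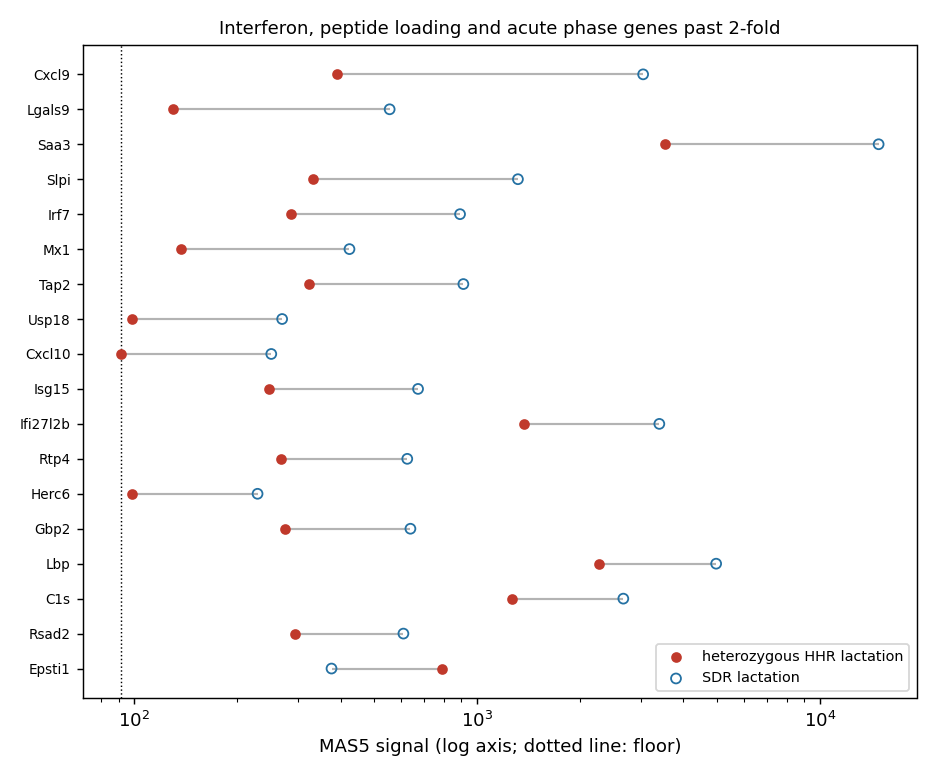
MAS5 signal (log axis) of each interferon, peptide loading and acute phase gene past 2-fold, in heterozygous HHR (filled red) and SDR (open blue), joined by a grey line, with values under the floor of 91.5 set to the dotted line. All but Epsti1 are lower in heterozygous HHR, and Cxcl9 and Lgals9 are the widest pairs.

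In the list of peptide loading and immunoproteasome genes 1 of 14 was lower (7.14%, against 4.15% over all genes) and 0 higher (median -0.26). Tap2 had 323 in heterozygous HHR and 912 in SDR, 2.83-fold lower. The interferon-induced proteasome subunit Psmb8 was just short of 2-fold with 3378 in heterozygous HHR and 6528 in SDR. B2m, the light chain of class I molecules, had 34368 in heterozygous HHR and 40188 in SDR. Erap1, which trims peptides, had 4690.2 in heterozygous HHR and 6131 in SDR. Of 12 class II pathway genes 4 were lower and 1 higher (median difference -0.36), the higher one being RT1-Ba. Probe sets disagreed in direction for RT1-Ba, and also for RT1-Bb and RT1-Db1, which were counted among the 4 lower. Cd74, the invariant chain, had 3387 in heterozygous HHR and 7512 in SDR, 2.22-fold lower. RT1-Da, a class II chain, had 2492 in heterozygous HHR and 5511 in SDR, 2.21-fold lower. The cathepsin Ctss, which degrades the invariant chain, had 3062 in heterozygous HHR and 3489 in SDR and stayed short.

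RT1 genes are near-identical copies that differ between rat strains, so a probe set may detect some alleles and miss others, and each was read by itself. Of 31 probe sets for 18 symbols 28 were above the floor in either array, 17 were at least 2-fold lower in heterozygous HHR (60.7%) and 4 higher (14.3%). Over all probe sets with 1 symbol these shares were 6.11% lower and 4.62% higher. RT1-CE5, a class I gene, had 4 probe sets above the floor, with differences of -6.77, -5.66 and -4.24, and of -1.61 as a bound, since heterozygous HHR was below the floor there. In the 3 widest pairs heterozygous HHR had 151, 145 and 223, against 16488, 7376 and 4222 in SDR. All 4 probe sets of RT1-S3 were lower as well, 3 of them past 2-fold.

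Class II RT1 probe sets of 1 gene disagreed. RT1-Ba, an alpha chain, had 4 probe sets above the floor, with differences of -6.63, -6.50 and 2.80, all bounds, and of 0.72. In both of the negative pairs heterozygous HHR was below the floor. SDR had 9051 and 8258 there, and at 2.80 the signal was 638 in heterozygous HHR and below the floor in SDR. RT1-Bb, the partner beta chain, had probe sets at -1.74 and at least 2.07, and RT1-Db1 had probe sets at -1.11 and 0.86. Of the class II genes with 1 probe set, RT1-Da was lower past 2-fold, and RT1-DMb and RT1-DMa lay below equality short of it. RT1-T24-4 was 2.77-fold higher, with 2376 in heterozygous HHR and 857 in SDR. RT1-A was at least 3.28-fold higher, with 299.9 in heterozygous HHR and a value just below the floor in SDR. Allele differences and levels cannot be told apart from these signals.

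**Figure D5:**
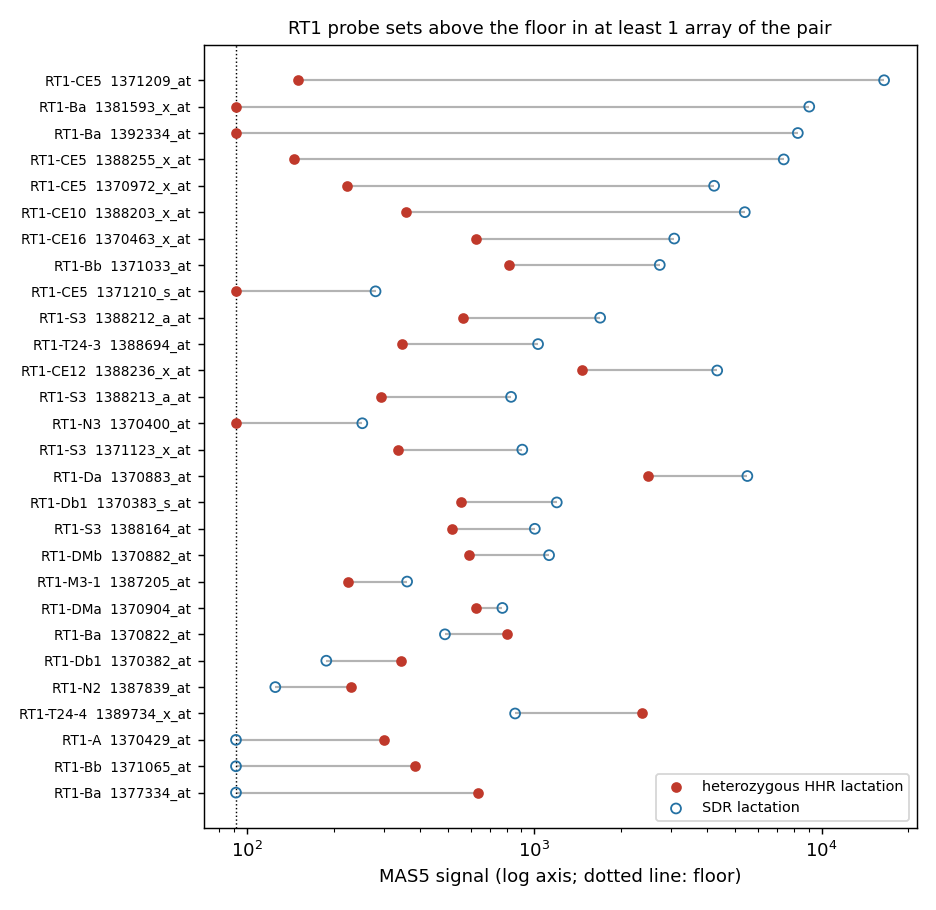
MAS5 signal (log axis) of the 28 RT1 probe sets measured in the pair, in heterozygous HHR (filled red) and SDR (open blue), with probe sets ordered by their difference and values under the floor of 91.5 set to the dotted line. The 3 widest pairs, 1 of RT1-CE5 and 2 of RT1-Ba, have heterozygous HHR at or near the floor and SDR at 16488, 9051 and 8258, while 4 probe sets are more than 2-fold higher in heterozygous HHR.

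Acute phase genes, which the gland makes in early involution and infection, were lower in 4 of 21 cases and higher in 0 (median -0.19). Saa3, a serum amyloid made by mammary epithelium, had 3535 in heterozygous HHR and 14839 in SDR, 4.20-fold lower, and stood at 20582 in homozygous HHR and 29592 in SDR involution. Slpi, a secreted protease inhibitor, had 332 in heterozygous HHR and 1316 in SDR, 3.96-fold lower. Lbp, which presents bacterial lipopolysaccharide, had 2273 in heterozygous HHR and 4982 in SDR, 2.19-fold lower, and the complement protease C1s was 2.11-fold lower. Heterozygous HHR had the lowest Saa3 and Lbp signals of the 4 arrays. The iron-binding lipocalin Lcn2 was short of 2-fold with 15836 in heterozygous HHR and 25616 in SDR, and complement C3 had 5818 in heterozygous HHR and 6605 in SDR.

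Of 28 genes of early involution and the Stat3 pathway 6 were lower and 0 higher (median difference -0.31). Stat3 itself had 1621 in heterozygous HHR and 1055 in SDR, 1.54-fold higher, and its second probe set was 1.09-fold lower. Ctsd and Ctsl, lysosomal proteases that rise when the gland regresses, had 4915 in heterozygous HHR and 11650.4 in SDR for Ctsd, and 3949.8 in heterozygous HHR and 8308 in SDR for Ctsl. Mmp2, a gelatinase, had 936 in heterozygous HHR and 2122 in SDR, 2.27-fold lower, and Plat, tissue plasminogen activator, had 369 in heterozygous HHR and 908 in SDR, 2.46-fold lower. Ctsd, Ctsl, Mmp2 and Plat were thus all lower, while the membrane-bound matrix protease Mmp14 was within 2-fold, with 1926 in heterozygous HHR and 2356 in SDR. Tgfb3, a growth factor of involution, was short of 2-fold with 2099 in heterozygous HHR and 4047 in SDR, and Igfbp5, which binds insulin-like growth factors, had 1657 in heterozygous HHR and 2855 in SDR, and 2 of its 3 further probe sets were below the floor in heterozygous HHR and at 273 and 269 in SDR. Homozygous HHR had 8809 for Tgfb3 and 6181 for Igfbp5, above both arrays of the pair. Cebpb, a transcription factor of involution, had 2619 in heterozygous HHR and 2822 in SDR. Of 23 immediate early genes 2 were higher, Myc and Nr4a1, and 0 lower (median -0.16).

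Milk protein genes hardly differed between the arrays. Of 12 measured 0 were higher and 1 lower, Spp1, which had a value below the floor in heterozygous HHR against 183 in SDR, and the median difference was 0.03. The caseins Csn2 with 55859 in heterozygous HHR and 54651 in SDR, and Csn1s1 with 60311 in heterozygous HHR and 59405 in SDR, were level. Wap, the whey acidic protein, had 44145 in heterozygous HHR and 42513 in SDR, and Lalba, alpha-lactalbumin, had 50638 in heterozygous HHR and 48609.5 in SDR. These signals are at the top of the range of the arrays, and saturation was not tested.

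Milk fat genes were lower in 4 of 34 cases and higher in 0, with a median of -0.09. Thrsp, a regulator of medium chain fatty acid synthesis, had 10763 in heterozygous HHR and 29683 in SDR, 2.76-fold lower. Cd36, a fatty acid transporter, had 15568 in heterozygous HHR and 34685 in SDR, 2.23-fold lower, and stood at 7958 in homozygous HHR. Insig1, which holds the sterol-regulated factors in the endoplasmic reticulum, had 4594 in heterozygous HHR and 9975 in SDR, 2.17-fold lower, and Scd, the stearoyl-CoA desaturase, had 931 in heterozygous HHR and 2000.2 in SDR, 2.15-fold lower. Of all 34 genes 12 lay above equality and 22 below. Members short of 2-fold went both ways on the probe set that stood for the gene. Dimmer probe sets of Acaca, Elovl5, Srebf1 and Gpam, counted as short, were 2.57-fold, 2.75-fold, 2.28-fold and 2.64-fold lower. Fasn, the fatty acid synthase, had 31008 in heterozygous HHR and 33683 in SDR, and its second probe set was 1.60-fold lower. Olah, the thioesterase that releases medium chain fatty acids, had 17103 in heterozygous HHR and 27972 in SDR (log2 difference -0.71). Lpl, lipoprotein lipase, had 37854 in heterozygous HHR and 42047 in SDR. Xdh and Plin2, coat proteins of the milk fat globule, had 41853 in heterozygous HHR and 35936 in SDR for Xdh, and 30701 in heterozygous HHR and 30596 in SDR for Plin2. Cholesterol synthesis had 0 of 18 genes past 2-fold and a median of 0.12, and Cyp51, a demethylase of that pathway, had 6442 in heterozygous HHR and 4346 in SDR.

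Of 31 genes of lactose synthesis and milk transport 3 were lower and 0 higher (median 0.05). Folr1, the folate receptor, had 3841 in heterozygous HHR and 12549 in SDR, 3.27-fold lower. Aqp5, a water channel, had 224 in heterozygous HHR and 508 in SDR, 2.26-fold lower, and Slc35a2, which carries UDP-galactose into the Golgi, had 99.9 in heterozygous HHR and 292 in SDR, 2.92-fold lower. The lactose synthase subunit B4galt1 had 12623 in heterozygous HHR and 11716 in SDR, with a dimmer probe set 1.71-fold lower. None of 14 prolactin and Stat5 genes passed 2-fold on the probe set that stood for the gene, although the median was -0.31. Prlr, the prolactin receptor, had 11404 in heterozygous HHR and 12407 in SDR on its brightest probe set, while its other probe sets were 3.64-fold lower, with 988 in heterozygous HHR and 3602 in SDR, and 1.78-fold lower. Cav1 had 6881 in heterozygous HHR and 11792 in SDR on its brightest probe set, and was 4.15-fold and 2.34-fold lower on its others. Elf5, a factor of alveolar fate, had 11597 in heterozygous HHR and 13668 in SDR. Id2, a factor of alveolar development, had 5096 in heterozygous HHR and 9268 in SDR.

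Among luminal markers 0 of 16 passed 2-fold (median -0.26), and their summed signal was 114131 in heterozygous HHR and 119330 in SDR. Epcam, an adhesion protein of epithelium, had 15022 in heterozygous HHR and 18299 in SDR, and Cd24 had 33719 in heterozygous HHR and 31429.8 in SDR. The labelled mammary tissue thus carried its epithelial markers in both arrays, beside the milk proteins above. Myoepithelial markers had a median of 0.68, with 2 of 16 higher and 2 lower. Actg2, a smooth muscle actin, had 6142 in heterozygous HHR and 3004 in SDR, 2.04-fold higher, and Krt5, a basal keratin, had 6633 in heterozygous HHR and 2564 in SDR, 2.59-fold higher. Tagln, a contractile protein, was short of 2-fold with 10348 in heterozygous HHR and 6433 in SDR, and Myh11, smooth muscle myosin, had 10580 in heterozygous HHR and 6052 in SDR. Oxtr, the oxytocin receptor of these cells, went the other way with 146 in heterozygous HHR and 316 in SDR, 2.16-fold lower, as did Sparcl1 with 1648 in heterozygous HHR and 3949.9 in SDR. The summed myoepithelial signal was 61056 in heterozygous HHR and 39971 in SDR.

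Keratins were read for the cluster that the HHR deletion touches. Of 10 genes of the type II keratin cluster on the array, counting Krt18, a type I keratin that lies in it, 4 were below the floor in both arrays. Of the other 6, 1 was higher, Krt5. Krt86, a hair keratin, was below the floor in heterozygous HHR and at 191 in homozygous HHR, against 93 in SDR, barely above the floor. Homozygous HHR thus had the highest Krt86 signal of the 4 arrays. Krt8, the type II keratin of luminal cells, had 6469.6 in heterozygous HHR and 5233 in SDR, and its partner Krt18 had 4599 in heterozygous HHR and 4954 in SDR. In the type I list, which leaves out Krt18, 1 of 7 was higher, Krt15, a basal keratin, with 2845 in heterozygous HHR and 1074 in SDR, 2.65-fold higher. Homozygous HHR had 588 for Krt15, less than either array of the pair. Krt19 had 2434 in heterozygous HHR and 4025 in SDR.

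Endothelial, macrophage and T cell marker lists had medians below 0. All 16 endothelial markers lay below equality, 4 were at least 2-fold lower and 0 higher, and the median was -0.69. Cldn5, the endothelial claudin, had 149 in heterozygous HHR and 684 in SDR, 4.59-fold lower, and Sox18, a factor of vessel development, had 411 in heterozygous HHR and 1465 in SDR, 3.56-fold lower. Kdr, the main VEGF receptor, was short of 2-fold with 1956 in heterozygous HHR and 3286 in SDR. The summed endothelial signal was 11815 in heterozygous HHR and 19629 in SDR. Fewer cells of a type and less RNA in each cell cannot be told apart here either.

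Of 17 macrophage markers 4 were lower and 0 higher (median difference -0.50). Laptm5, a lysosomal membrane protein of blood cells, had 735 in heterozygous HHR and 2434 in SDR, 3.31-fold lower, and Adgre1, the F4/80 antigen, had 129 in heterozygous HHR and 333 in SDR, 2.59-fold lower. Csf1r, the receptor for macrophage growth factor, was 2.04-fold lower. Lyz2, lysozyme, stayed just short with 5311 in heterozygous HHR and 10116 in SDR. T and NK cell markers had 2 of 16 lower and 0 higher (median -0.42), among them Ccl5, a T cell chemokine, with 414 in heterozygous HHR and 846 in SDR. Cd4 had a value below the floor in heterozygous HHR against 218 in SDR and was at least 2.38-fold lower. Neutrophil markers were few, and S100a8 and S100a9 had 246 and 278 in heterozygous HHR and values below the floor in SDR.

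Fibroblast and matrix markers had 3 of 22 lower, 0 higher and a median of -0.30, and 1 lower with the pseudocount. Lum, lumican, a collagen-binding proteoglycan, had 1910.2 in heterozygous HHR and 3852 in SDR, 2.02-fold lower, and Mfap5, of elastic microfibrils, had 654 in heterozygous HHR and 1377 in SDR, 2.10-fold lower. Col1a1, 1 of the chains of type I collagen, was level with 9832 in heterozygous HHR and 9675 in SDR. Col1a2, the other chain, had 6900 in heterozygous HHR and 11494 in SDR, 1.67-fold lower, and was 1.76-fold lower on a second probe set. Col3a1 of type III collagen had 18053 in heterozygous HHR and 31427 in SDR. None of 14 basement membrane genes passed 2-fold (median -0.32).

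Adipocyte markers went both ways, with 2 of 16 higher, 4 lower and a median of 0.26. Plin1 and Cidec, coat proteins of the fat droplet, had 1149.6 in heterozygous HHR and 561 in SDR for Plin1, and 1207 in heterozygous HHR and 599.6 in SDR for Cidec. Fabp4, the adipocyte fatty acid binding protein, which capillary endothelium also makes, had 9507 in heterozygous HHR and 23931 in SDR, 2.52-fold lower. Aqp7, a glycerol channel found in fat and in capillaries, had 368 in heterozygous HHR and 955 in SDR, 2.59-fold lower, and Acacb, a carboxylase of fat oxidation control, was 2.83-fold lower. Pparg, the master factor of fat cells, was 2.03-fold lower. Plin1 and Cidec thus lay on the other side of equality from Fabp4, Aqp7, Acacb and Pparg. Adipoq, adiponectin, had 1684 in heterozygous HHR and 1328 in SDR.

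Among clock genes the 3 Period genes and Nr1d1 lay on opposite sides. Per1, Per2 and Per3, which close the negative loop of the clock, were 2.63-fold higher, 3.78-fold higher and 2.56-fold higher. Per2 had 1061 in heterozygous HHR and 281 in SDR. Nr1d1, Rev-erb alpha, which represses Bmal1, had 199.5 in heterozygous HHR and 788 in SDR, 3.95-fold lower. Of the 17 measured clock genes no others passed 2-fold, and Clock had 1804 in heterozygous HHR and 1631 in SDR, while its other probe sets above the floor were lower by 0.48 to at least 1.04 on the log2 scale. The labels give no time of day for the samples. In the PI3K and insulin list 2 of 23 genes were lower (8.70%, against 4.15% over all genes) and 0 higher. Both lower genes were regulatory subunits, Pik3r1 and Pik3r3. Pik3r3 had 219.6 in heterozygous HHR and 699 in SDR, 3.18-fold lower. The catalytic subunit Pik3ca had 1119 in heterozygous HHR and 992 in SDR, and the kinase Akt1 had 7993 in heterozygous HHR and 6643 in SDR, with a second probe set 1.76-fold lower.

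Ribosome biogenesis genes had 2 of 27 higher (7.41%, against 4.58% over all genes) and 0 lower, with a median of 0.28. Nop58, a core protein of snoRNA particles, had 5906 in heterozygous HHR and 2856 in SDR, 2.07-fold higher, and Rrp12, of ribosome export, was 2.17-fold higher. Ncl, nucleolin, was short of 2-fold with 7703 in heterozygous HHR and 4289.9 in SDR. In the unfolded protein and amino acid stress list 1 of 24 was lower and 0 higher (median -0.10). That share, 4.17%, was close to the 4.15% lower over all genes. The lower gene was Dnajb9, a cochaperone of the endoplasmic reticulum, with 911 in heterozygous HHR and 2619 in SDR, 2.88-fold lower. Hspa5, the chaperone BiP that it assists, was level with 21254 in heterozygous HHR and 21401 in SDR.

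Among the genes with the largest differences several lay outside these lists. Fam111a, whose promoter is printed above, had 15339 in heterozygous HHR and 659 in SDR, 23.3-fold higher, and stood at 10912 in homozygous HHR and 133 in SDR involution. Chl1, a cell adhesion protein best known from neurons, had 2903 in heterozygous HHR and 548 in SDR, 5.30-fold higher. Cep135, a protein of the centriole, had 577 in heterozygous HHR and 113 in SDR, 5.09-fold higher, and Donson, which helps to assemble the replicative helicase, had 468 in heterozygous HHR and 101 in SDR, 4.66-fold higher. Cenpu, a centromere protein, was 4.80-fold higher. Cep135, Donson and Cenpu again belong to cell division, though not to the lists above. Clec3b, tetranectin, a plasminogen-binding protein, had 350.3 in heterozygous HHR against a value below the floor in SDR and was at least 3.83-fold higher. Shroom3, which shapes the apical side of epithelium, had 312 in heterozygous HHR against a value below the floor in SDR and was at least 3.41-fold higher.

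In the other direction Slc28a3, a concentrative nucleoside transporter, had 961 in heterozygous HHR and 6177 in SDR, 6.43-fold lower. Cfi, a protease that inactivates complement, had 138 in heterozygous HHR and 1035 in SDR, 7.49-fold lower, and Abca1, which exports cholesterol, had 127 in heterozygous HHR and 827 in SDR, 6.53-fold lower with its other 3 probe sets lower too, 2 of them short of 2-fold. Car6, a secreted carbonic anhydrase of saliva and milk, had 180.2 in heterozygous HHR and 1156 in SDR, 6.42-fold lower. Cma1, the chymase of mast cells, had 130.1 in heterozygous HHR and 623 in SDR, 4.78-fold lower. Lrrc26, a subunit of potassium channels in secretory epithelium, had 120.2 in heterozygous HHR and 566 in SDR, 4.71-fold lower. Acadsb, an acyl-CoA dehydrogenase of branched chain catabolism, had a value below the floor in heterozygous HHR against 324 in SDR and was at least 3.54-fold lower. Pilra, an inhibitory receptor of myeloid cells, had a value below the floor in heterozygous HHR against 374 in SDR and was at least 4.09-fold lower.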

How the data were processed

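RNA of 4 rat mammary gland samples was hybridised to 1 array each. The authors deposited intensity values made with MAS5, per the submitters' processing notes, which give no version, and the values are on a linear scale. A mean of the deposited values trimmed by 2% at either end came to 500.2 in each array. Detection calls and the settings of MAS5 are not in the sources used here.

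Titles tied each column to its sample, and 0 columns were left over. Of 31099 probe sets 57 were controls, 20826 had 1 gene symbol in the platform annotation, 436 several and 9780 none, and those with 1 symbol were named. Of these, 20758 were found by gene identifier in the RefSeq table of GRCr8. Values under the pooled 40th percentile (91.5) were raised to it ahead of the log2 step. For each gene the probe set with the highest mean log2 signal was kept, giving 14217 genes, of which 4525 had several probe sets. Python 3.11.15, numpy 2.4.6, pandas 2.3.3 and matplotlib 3.10.9 were used. The steps were checked on simulated data. Precision is limited by the number of arrays.

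The members, the 44 lists (861 of 1017 entries on the array, 8 by an older symbol), the motifs and the alternatives were chosen with earlier results of these data known. Several genes belong to more than 1 list. Genes were named by rule. The rule took the 15 largest differences in each direction with both values above the floor and concordant probe sets, and the 10 brightest in each direction with 1 value below the floor. It also took list members past 2-fold, the 6 brightest others of a list, the genes nearest to 2-fold, and all RT1 probe sets. A selection of these is given, and placeholder symbols were left out.

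Alternatives were median centring, quantile normalization, the floor moved to the 25th and to the 55th percentile, a pseudocount equal to the floor, averaging all probe sets of a gene, and the brightest probe set without a shared-probe suffix. No test was made, because each group has 1 array.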

Additional observations from a re-analysis of the deposited data

Results flagged for a closer look

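A difference of opposite sign in the HHR arrays was seen for 4 genes, each past 2-fold one way in heterozygous HHR and past 2-fold the other way in homozygous HHR, both against the same SDR array. The difference between the HHR arrays was not tested, and the genes were chosen after their values were seen. Gtse1, a microtubule-binding protein of G2 and M phase, had a log2 difference of 1.29, with 776 in heterozygous HHR, a value below the floor in homozygous HHR, against 317 in SDR. Mex3b, an RNA-binding ubiquitin ligase, had a log2 difference of -1.30, with heterozygous HHR at 98.6 and homozygous HHR at 575, against 243 in SDR. Sdr16c5, a retinol dehydrogenase, had a log2 difference of -1.08, which is a bound, with a value below the floor in heterozygous HHR, 524 in homozygous HHR, against 193 in SDR. Tcp11l2 had a log2 difference of -1.43, with heterozygous HHR at 402 and homozygous HHR at 2233, against 1086 in SDR.

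Probe sets without a single gene symbol enter none of the comparisons above. Of 5057 such probe sets above the floor in either array, 380 were at least 2-fold higher in heterozygous HHR (7.51%) and 181 at least 2-fold lower (3.58%). The largest differences were higher by at least 28.8-fold for 1380669_at, 13.5-fold for 1393108_at and 11.7-fold for 1375707_at. Lower by the most were 1388202_at (at least 66.0-fold), 1378052_at (at least 9.71-fold) and 1376129_at (5.55-fold).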

How the results depend on the processing

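The count of genes at least 2-fold higher in heterozygous HHR was 498, and was 756 with the floor at the 25th percentile and 324 with the floor added as a pseudocount. The count of lower genes was 451, and was 689 with the floor at the 25th percentile, 297 with the floor at the 55th percentile and 261 with the pseudocount. The pseudocount also left 5 of the 10 lower interferon-induced effectors and 1 of the 3 lower fibroblast and matrix markers. Each of these settings changes how far dim genes are compressed. In all, 56 of 63 counts under the 7 alternatives stayed within 1.5 times of the value reported. Of the list medians under the alternatives 287 were within 0.2 of the value reported and 20 moved further. Among medians at least 0.1 from 0, 1 changed sign, that of the clock genes, which was -0.10 and became 0.0153 without shared-probe suffixes. For RT1-Ba the difference of 2.80, a bound, became -2.40 with the mean of all probe sets, for RT1-Bb -1.74 became 0.16 with the same setting, and for RT1-Db1 -1.11 became 0.86 without shared-probe suffixes. Of 240 named genes past 2-fold 191 stayed past it on the same side with the pseudocount, 205 with the floor at the 55th percentile, 223 with the mean of all probe sets, and 234 with quantile normalization.

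No paired analysis was possible because each group holds 1 array. With 1 array in each group no difference has a replicate error, and dim genes are limited by the floor. The spread of differences was 0.63 (SD, log2) in the dimmest 3625 genes and 0.56 in the brightest 3626, with 5.41% and 3.06% of them at least 2-fold higher.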

Other observations

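In the gene order of GRCr8, 3 runs of at least 3 neighbouring measured genes shared a direction past 2-fold among 10844 placed genes, and their members were named after their values were seen. On chromosome 20 Nrm, a nuclear envelope protein, Mdc1, a mediator of DNA damage signalling, and Tubb5 were 2.41-fold higher, 5.78-fold higher and 2.71-fold higher. On the same chromosome the class I genes RT1-CE16, RT1-CE12, RT1-CE10 and RT1-CE5 formed a lower run, where similar sequences may share probes. On chromosome 4 a lower run held Clec4a1, Clec4a3 and Clec4a, lectin receptors of myeloid cells. Clec4a3 had 185 in heterozygous HHR and 561 in SDR, 3.04-fold lower, and Clec4a1 was 2.76-fold lower. Of the 321 measured genes on chromosome 20, 5.30% were higher and 6.85% lower.

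Dendritic cell markers were few. Of 5 measured 1 was higher, Batf3, a factor of cross-presenting dendritic cells, with 558 in heterozygous HHR and 270.4 in SDR, 2.06-fold higher, and 2 were lower, among them Itgax, the CD11c antigen, with 147 in heterozygous HHR and 332 in SDR, 2.25-fold lower. Schwann cell and nerve markers had 1 of 6 higher, Prx, a protein of myelin sheaths, with 306 in heterozygous HHR and 153 in SDR, and 1 lower, S100b, with 524 in heterozygous HHR and 1141 in SDR. Ccl21, a chemokine of lymphatic vessels and lymph nodes, had 292 in heterozygous HHR and 662 in SDR, 2.26-fold lower, and Lyve1, a lymphatic receptor, had 692 in heterozygous HHR and 722 in SDR, with a second probe set 1.72-fold higher. None of 5 B and plasma cell markers and none of 5 skeletal muscle markers passed 2-fold, and Jchain, the joining chain of antibodies, had 749.7 in heterozygous HHR and 767 in SDR. None of 4 skin epidermis markers passed 2-fold. Of 3 red cell markers Hbb, a haemoglobin chain, was lower. Of 10 genes of the ovarian steroid response and ductal growth, Erbb3, a receptor of neuregulins, was 2.05-fold lower.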
